A study of Mus musculus with 4 samples.

Results

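The 10 genes described here are transcription factor genes and products of the hair matrix, the hair shaft and the inner root sheath that are not keratins. They are Msx1, Msx2, Dlx3, Cux1, Foxn1, Gata3, Prdm1, Tchh, Padi3 and Crym, 10 of the 18193 genes named on the arrays. They were measured in miR-205 knockout cells and in wild-type cells on Affymetrix mouse arrays. The groups were miR-205 KO (2 arrays) and WT (2 arrays), all from C57BL/6 skin at postnatal day 4, with cells called hair follicle stem cells and sorted by flow cytometry. Each group's arrays are numbered 1 and 2 as biological replicates. The labels describe neither the miR-205 allele nor the sort markers, and do not say whether a replicate is 1 animal or a pool, so p-values measure only the spread between these samples. A treatment text shared by all 4 samples describes another system, doxycycline induction of miR-203 in K14-rtTA/TRE-miR-203/K14-H2BGFP mice, and was not used for grouping.

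Each gene was followed through the probe set of highest mean over the 4 arrays, a probe set being a group of short probes summarised as 1 log2 value. The 10 genes have 22 probe sets with 1 gene symbol, of which Cux1 has 9, Msx1, Msx2, Dlx3 and Foxn1 have 2 each, and the others 1. Differences were taken between arrays for the same probe set, since levels of different probe sets are not comparable. A probe set is called dim where its mean lies under the median gene (6.88), which was used only for this mark and as a filter. All 10 entered the fit, as no gene was removed for a low value.

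In a growing follicle, dividing matrix cells at the base of the bulb give rise to the hair shaft and to the inner root sheath that moulds it. Msx1, Msx2 and Dlx3 are homeobox factors, of which MSX2 and DLX3 act in the matrix and shaft, FOXN1 is the forkhead factor missing in nude mice, and GATA3 and the cut-homeobox factor CUX1 are needed for the inner root sheath. PRDM1 (BLIMP1) is a transcriptional repressor found in sebaceous and sheath lineages. Trichohyalin, the product of Tchh, hardens the inner root sheath and medulla after the enzyme PADI3 turns its arginines into citrullines and transglutaminases cross-link it, and mu-crystallin, the product of Crym, binds thyroid hormone. miR-205 is an abundant microRNA of skin epithelium.

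The mature microRNA for which the genotype is named is shown first. It is given from RefSeq on GRCm38.p6, chr1:193507503-193507524, minus strand, with the seed (bases 2 to 8) in capitals.
mmu-miR-205-5p: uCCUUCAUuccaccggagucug

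Promoters of 8 of the 10 genes were in the RefSeq table of GRCm38.p6, each 250 bases before and 50 after the gene's start. 3 are printed, those of Msx1 and Msx2, which had the same order of arrays, and of Tchh, which had another. Each runs 5′ to 3′ on the gene's strand. Capitals mark every match to 6 motifs searched on either strand. The search covered the canonical box upstream of many starts, spelled TATAAA, the homeodomain core of MSX and DLX proteins, spelled TAATTG, and the core of LEF1, spelled CTTTGA. It also covered the core of GATA3, spelled AGATAA, the core of PRDM1, spelled GAAAGT, and the promoter box spelled CCAAT. The windows are chr5:37824536-37824835 (minus strand) for Msx1, chr13:53472731-53473030 (minus strand) for Msx2 and chr3:93442080-93442379 (plus strand) for Tchh.
Msx1: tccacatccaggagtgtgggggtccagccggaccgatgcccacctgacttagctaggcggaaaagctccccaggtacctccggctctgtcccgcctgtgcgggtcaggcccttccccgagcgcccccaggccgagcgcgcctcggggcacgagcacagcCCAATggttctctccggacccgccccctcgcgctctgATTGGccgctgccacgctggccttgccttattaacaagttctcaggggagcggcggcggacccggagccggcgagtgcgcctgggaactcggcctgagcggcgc
Msx2: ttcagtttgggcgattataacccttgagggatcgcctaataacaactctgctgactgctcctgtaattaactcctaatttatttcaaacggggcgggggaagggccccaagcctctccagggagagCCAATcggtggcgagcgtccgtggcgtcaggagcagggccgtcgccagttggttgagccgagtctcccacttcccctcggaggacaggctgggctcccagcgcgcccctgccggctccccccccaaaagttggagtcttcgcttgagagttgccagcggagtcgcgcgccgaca
Tchh: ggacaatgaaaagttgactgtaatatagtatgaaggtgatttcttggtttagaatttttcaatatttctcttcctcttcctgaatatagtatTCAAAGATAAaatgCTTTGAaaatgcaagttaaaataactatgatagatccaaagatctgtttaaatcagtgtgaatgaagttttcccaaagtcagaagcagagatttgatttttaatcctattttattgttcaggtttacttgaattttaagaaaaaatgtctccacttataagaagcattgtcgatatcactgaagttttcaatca

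The Tchh window was 28.7% G and C, against 70% for Msx1, 61% for Msx2 and a median of 52.7% over the 32851 promoters of that table. CTTTGA was found in 1 of the 8 member promoters, that of Tchh, at positions -158 (reverse strand) and -144 from the start, and in 16% of all promoters. AGATAA also stood only in the Tchh window among the 8, at -154 and overlapping the first of these matches, and in 11.2% of all. CCAAT stood in 5 of the 8 (Msx1, Msx2, Foxn1, Prdm1 and Padi3) and in 37.4% of all. In Msx1 it lay at -91 and, reversed, at -54, and in Msx2 at -124. GAAAGT was found in Cux1 alone among the 8, at -101, and in 14.3% of all. None of the 8 held TATAAA (13.6% of all) or TAATTG (8% of all). These are matches of letters and not measured binding.

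The arrays correlated closely over all probe sets, with Pearson's r between 0.991 and 0.996, and array medians lay between 5.85 and 5.87. The label was set beside markers by their values. Krt14, a basal keratin, was at 13.65 and 13.73 in KO and at 13.54 and 13.57 in WT, and Krt15, a keratin of the bulge, was at 13.83 and 14.05 in KO and at 13.62 and 13.78 in WT. The stem cell marker Cd34 was at 6.87 and 6.69 in KO and 8.32 and 6.20 in WT. The leukocyte gene Ptprc was at 3.51 to 3.55 on all 4 arrays. The KO and WT arrays differed in sex-linked RNA, with Xist at 5.35 ± 0.13 on the KO arrays against 13.23 ± 0.07 on the WT arrays, and the Y-linked Eif2s3y at 9.58 ± 0.016 on the KO arrays against 2.95 ± 0.14 on the WT arrays (SD over 2 arrays each). Genotype and sex-linked RNA therefore cannot be told apart in any comparison below. miR-205 itself was not measured, and the probe set of its host transcript Mir205hg was at 6.52 and 6.13 in KO and 5.81 and 5.30 in WT (KO minus WT 0.77, SE 0.26, limma adjusted p = 1). Since the deleted stretch is not described, these values do not check the genotype.

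None of the 10 genes passed the comparison of KO with WT (limma, Benjamini-Hochberg adjustment over all genes, adjusted p = 1 for each), and none had an unadjusted p under 0.05. Over all genes 0.011% passed, which were Xist and Eif2s3y, and 1.88% had an unadjusted p under 0.05. The KO minus WT difference on the log2 scale ran from -0.11 for Cux1 to 0.44 for Crym. Its median over the 10 genes was 0.10, against 0.01 over all genes. It was positive for 9 of the 10 genes, as it was for 53.2% of all genes. Both KO arrays lay above both WT arrays for 1 gene, Tchh, against 8.2% of all genes, and for none did both lie below, against 5.7%.

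More of the 10 genes were separated by replicate number than by genotype. For 8 of the 10 genes (Msx1, Msx2, Dlx3, Cux1, Gata3, Prdm1, Padi3 and Crym) both number 1 arrays lay above both number 2 arrays, against 22% of all genes. For none were both number 1 arrays below, against 21.7% of all genes. With any 1 array left out the count was 8 or 9 of 10, against 30.7% to 34.4% of all genes. The number 1 minus number 2 difference, fitted with limma with genotype in the model, did not pass for any of the 10 genes (adjusted p between 0.28 and 0.61). Over all genes 0% passed. It had an unadjusted p under 0.05 with number 1 higher for 2 of the 10, Gata3 and Cux1, against 9.51% of all genes. The labels do not say what the numbers stand for beyond replicates.

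**Figure D1:**
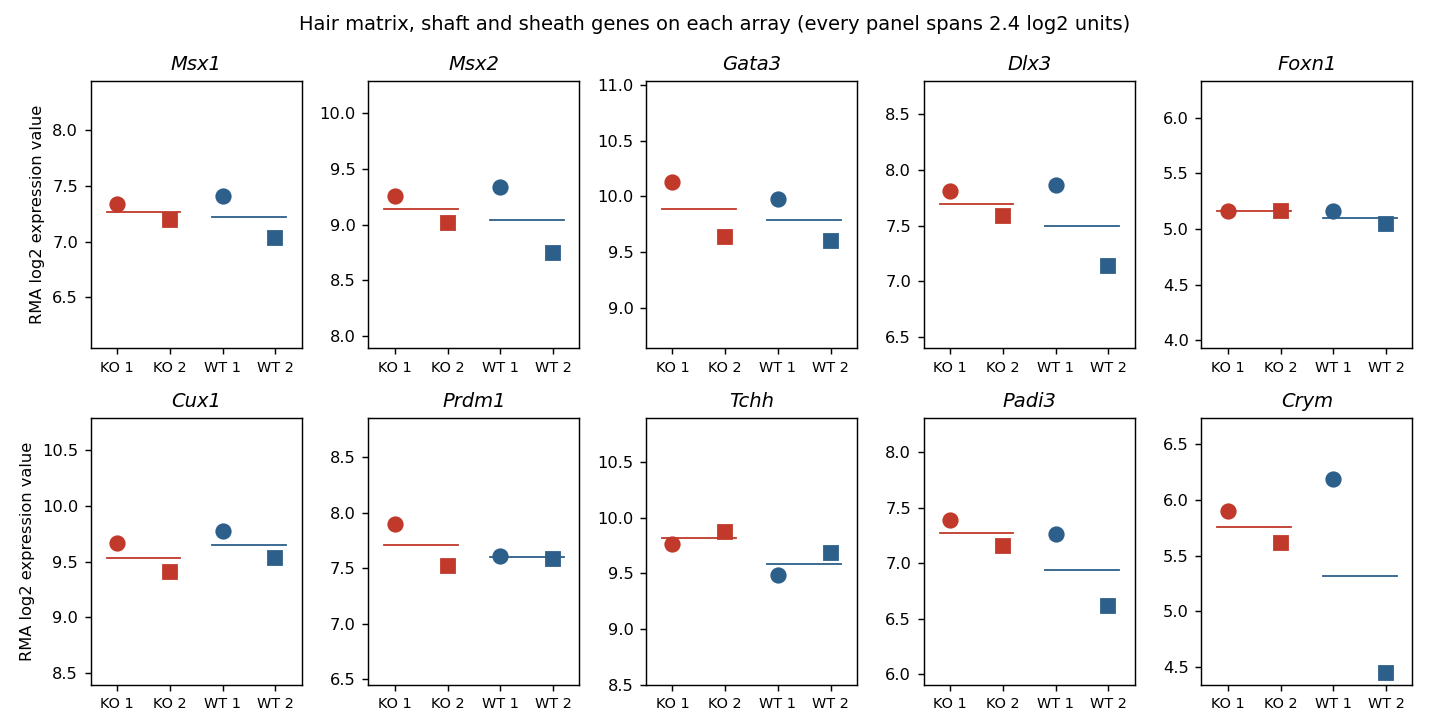
RMA log2 expression value (y axis, 2.4 log2 units in every panel) of each of the 10 genes on the arrays KO 1, KO 2, WT 1 and WT 2 (x axis). Circles are number 1 arrays, squares number 2 arrays and lines the group means. WT 2 is the lowest array for 7 of the genes, and in Tchh alone both KO arrays lie above the WT arrays.

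Among the homeobox genes, Msx2 was at 9.26 and 9.01 on KO 1 and KO 2 and at 9.34 and 8.75 on WT 1 and WT 2. The KO values lay between the WT values, so the groups overlapped. KO cells averaged 9.14 ± 0.18 against 9.04 ± 0.42 for WT cells (SD, n = 2 each). KO minus WT was 0.09 (SE 0.26). Its relative Msx1 showed the same order at a smaller spread, at 7.34 and 7.19 in KO and 7.41 and 7.03 in WT, with a difference of 0.04 (SE 0.17). Within the numbers both genes changed sign, at -0.08 for number 1 and 0.26 for number 2 for Msx2, and at -0.08 and 0.16 for Msx1. Leaving out WT 2 turned the difference to -0.20 for Msx2 and to -0.15 for Msx1.

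Dlx3, whose product acts downstream of WNT signals in the shaft, was at 7.81 and 7.58 in KO and at 7.87 and 7.13 in WT. WT 2 stood lowest, and the other 3 arrays lay closer together. The difference was 0.20 with an SE of 0.31, made up of -0.05 within number 1 and 0.45 within number 2, and leaving out WT 2 gave -0.17. The WT arrays differed from each other by 0.73, and the KO arrays by 0.23.

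Cux1 was the 1 gene of the 10 with lower values in KO within both numbers, at 9.67 and 9.41 in KO and 9.77 and 9.53 in WT, against 16.8% of all genes. The groups still overlapped, because KO 1 lay above WT 2. The difference was -0.11 with an SE of 0.15, being -0.11 for number 1 and -0.12 for number 2. The number 1 arrays exceeded the number 2 arrays by 0.25 (SE 0.05, limma unadjusted p = 0.020, adjusted p = 0.28).

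The other 8 probe sets of Cux1, a gene with several transcripts, gave differences between -0.12 and 0.05. Of all 9, 7 were negative and 2 were positive. The negative value within number 2 was found only in the probe set used and in 1 other, 1425612_at, where it was -0.26; the remaining 7 gave 0.00 to 0.34 between the number 2 arrays. Probe set 1425612_at stood apart from the rest. It was at 6.31 and 4.19 in KO and at 5.94 and 4.45 in WT, so that number 1 arrays exceeded number 2 arrays by 2.12 in KO and by 1.49 in WT, while KO and WT differed by 0.05 (SE 1.06). Probe set 1425611_a_at, designed from the same sequence record, was at 8.30 and 8.19 in KO and 8.54 and 8.19 in WT and showed a number 1 excess of 0.10 in KO and 0.34 in WT. The excess was not found in both groups in every probe set. KO 1 minus KO 2 was -0.09 in 1441956_s_at and -0.26 in 1437431_at, whose means were 8.94 and 8.10. WT 1 minus WT 2 was 0.58 and 0.505 there.

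**Figure D2:**
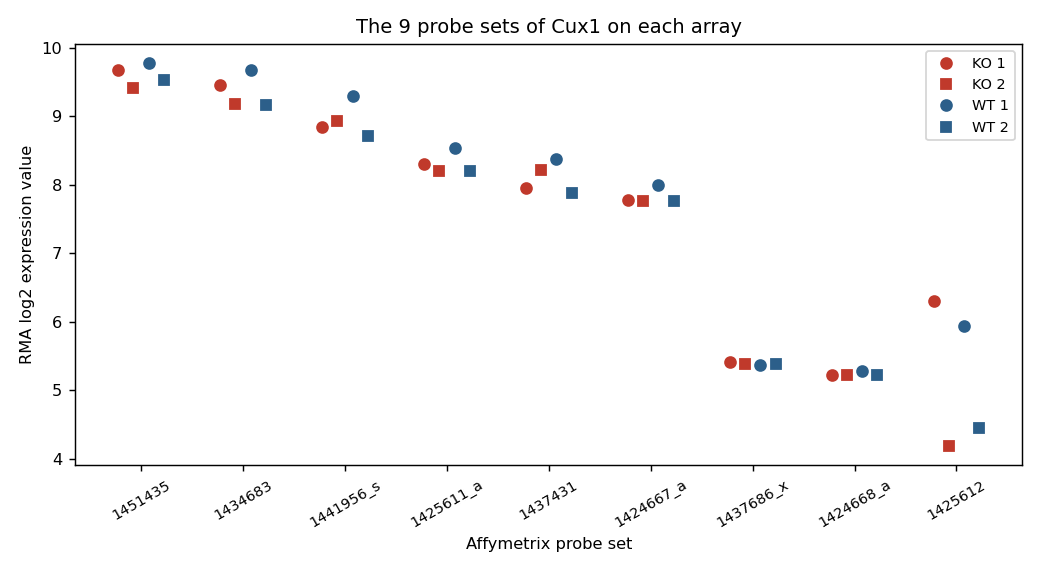
RMA log2 expression value (y axis) of the 9 probe sets of Cux1 (x axis, from the highest mean to the lowest) on the 4 arrays. KO is red and WT blue, with circles for number 1 and squares for number 2. The probe set at the far right, 1425612_at, separates the numbers, with 6.31 and 5.94 on KO 1 and WT 1 against 4.19 and 4.45 on KO 2 and WT 2.

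The forkhead gene Foxn1 was dim and gave little information. Its probe set was at 5.16 on KO 1, KO 2 and WT 1, the same value on the 3 arrays, and at 5.05 on WT 2. The difference was 0.06 (SE 0.06). Its other probe set was dimmer still, at 4.54 and 4.55 in KO and 4.62 and 4.26 in WT, with a difference of 0.11 (SE 0.15). Values equal in every deposited digit on at least 2 arrays occurred in 7 of the 22 member probe sets and in 47.1% of all probe sets. The deposited table has no detection calls, so whether such a probe set measures the transcript at all is not known.

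Gata3 was at 10.13 and 9.63 in KO and at 9.98 and 9.60 in WT. The number 1 arrays were high and the number 2 arrays low in both groups, and KO was above WT within both numbers, by 0.15 for number 1 and by 0.03 for number 2. The mean difference was 0.09 with an SE of 0.26. The number 1 excess was 0.44 (SE 0.06, limma unadjusted p = 0.010, adjusted p = 0.28), larger than the genotype difference. In bulk RNA of sorted cells, fewer cells of a type and less RNA per cell cannot be told apart.

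Prdm1 differed from the others in that the WT arrays nearly coincided, at 7.61 and 7.58, while KO 1 was at 7.90 and KO 2 at 7.52. The KO values lay on either side of the WT values. The difference was 0.11 (SE 0.16), made up of 0.29 within number 1 and -0.07 within number 2. Leaving out KO 1 gave -0.08. Leaving out KO 2 gave 0.30, where its adjusted p was 0.38 (limma), the smallest of any of the 10 genes with an array left out or another setting.

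Of the genes for structural products and their enzymes, Tchh was at 9.76 and 9.87 in KO and at 9.48 and 9.68 in WT. Both KO arrays were above both WT arrays, and in each group number 2 was the higher array, unlike in the 8 genes above. KO cells averaged 9.81 ± 0.08 against 9.58 ± 0.14 for WT cells (SD, n = 2 each). KO minus WT was 0.23 (SE 0.10, limma unadjusted p = 0.098, adjusted p = 1), or 1.17-fold. The difference was 0.28 for number 1 and 0.19 for number 2, and between 0.13 and 0.33 with any 1 array left out. After quantile normalization was run again the difference was 0.22 and the KO and WT arrays overlapped. The order KO 2, KO 1, WT 2, WT 1 from high to low was shared by 1.57% of all genes.

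Padi3, for the enzyme that citrullinates trichohyalin, was at 7.39 and 7.15 in KO and at 7.27 and 6.62 in WT. WT 2 was low and the other 3 arrays lay close together. The difference was 0.33 (SE 0.28), with 0.13 within number 1 and 0.54 within number 2. Leaving out WT 1 gave 0.66 and leaving out WT 2 gave 0.0083, so its size rested on the WT arrays. Together with Gata3 and Tchh, Padi3 was 1 of the 3 genes with higher KO values within both numbers, against 24% of all genes.

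Crym had the widest spread of the 10 genes, and was the 1 gene among them with a range of at least 1 on the log2 scale, against 2.22% of all genes. It was at 5.90 and 5.62 in KO and at 6.19 and 4.45 in WT, a dim probe set below the median gene. The KO arrays lay between the WT arrays, which differed from each other by 1.74. Whether the low value on WT 2 is above background is not known. The mean difference of 0.44 (SE 0.71) joined -0.29 for number 1 and 1.17 for number 2. Leaving out WT 1 gave 1.31, and leaving out WT 2 gave -0.43.

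**Figure D3:**
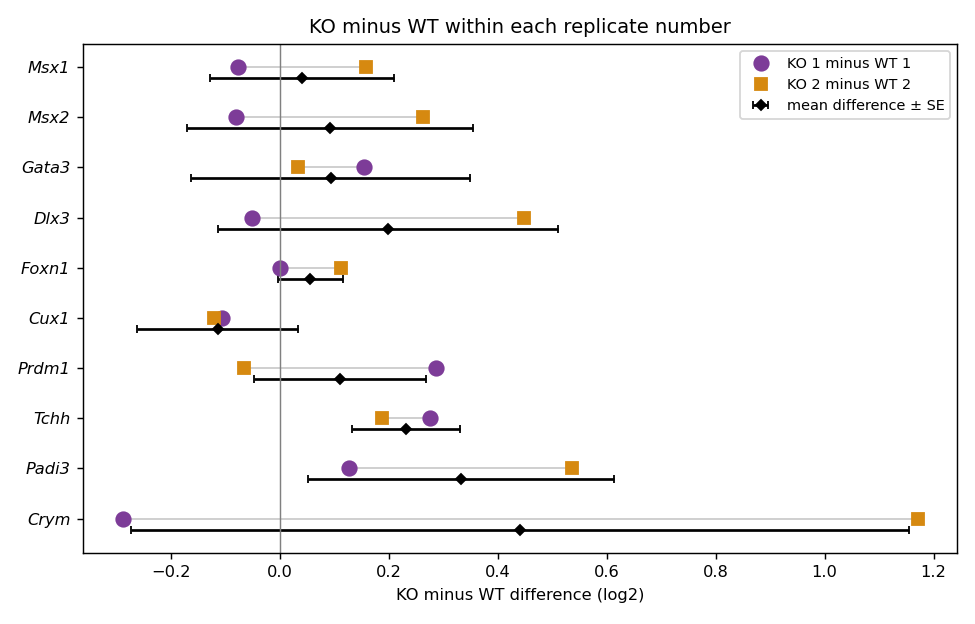
KO minus WT difference in log2 units (x axis) for each of the 10 genes (y axis) between the number 1 arrays (circles) and between the number 2 arrays (squares), with the mean difference and its SE (diamonds with bars). Msx1, Msx2, Dlx3, Prdm1 and Crym have values on both sides of 0, and Crym spans -0.29 to 1.17.

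Over the 10 genes, the median difference was -0.03 within number 1 and 0.17 within number 2, against 0 for all genes in both. The sign was opposite between the numbers for 5 of the 10 genes, against 34.8% of all genes. WT 2 was the lowest array for 7 of the 10, against 22.1% of all genes, and WT 1 the highest for 5, against 17.4%. The median over the 10 genes of the difference between arrays of 1 group was 0.38 for WT 1 minus WT 2 and 0.24 for KO 1 minus KO 2. Without WT 2 the median KO minus WT difference of the 10 was -0.12, and without WT 1 it was 0.26.

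The second probe sets of the homeobox genes were dimmer and did not repeat the order of the arrays. That of Msx1 was at 6.15 and 6.58 in KO and 6.31 and 6.34 in WT, with KO 2 highest. That of Dlx3 was at 6.04 and 6.35 in KO and at 6.23 on both WT arrays. That of Msx2 lay at 3.99 to 4.06 on all 4 arrays. The excess of number 1 in these 3 genes therefore rests on 1 probe set each.

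Msx1, Msx2, Dlx3 and Crym shared the order WT 1, KO 1, KO 2, WT 2 from high to low, which 4.33% of all genes had. Dermal fibroblast markers had this order in 13 of 15 genes, with Col1a2, a collagen chain, at 13.10 and 11.86 in KO and 13.89 and 11.34 in WT. The median level of the 15 markers was 9.22 and 8.91 in KO and 10.61 and 8.47 in WT, and their summed level (log2 of the sum of linear values) was 14.78 and 13.88 in KO and 15.68 and 13.47 in WT. The 2 of smallest p were Fbln1, at a difference of -0.06 (SE 0.05), and Twist2, at -0.66 (SE 0.75). Both number 1 arrays lay above both number 2 arrays in 14 of the 15 markers, as they did in Msx1, Msx2, Dlx3, Crym, Gata3, Cux1, Prdm1 and Padi3. The part of fibroblast RNA in the spread of these 8 genes was not tested.

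Further hair genes were followed in 3 lists, and no gene of them passed or had an unadjusted p under 0.05. Other regulators and signals of the follicle had a median difference of 0.02 in 21 measured genes of 22, with 12 positive. The bulge factor Lhx2 differed by 0.07 (SE 0.04), the vitamin D receptor Vdr by 0.25 (SE 0.16), the BMP receptor Bmpr1a by 0.08 (SE 0.07) and Hoxc13, a factor of the shaft, by -0.11 (SE 0.10). Lef1, which acts with beta-catenin in the matrix and precortex, was at 8.32 and 7.80 in KO and at 8.04 and 7.67 in WT, with both number 1 arrays above the number 2 arrays. That was so for 10 of the 21 genes, against 22% of all genes.

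Inner root sheath products were higher in KO in 9 of 10 genes by value, against 53.2% of all genes, with a median of 0.24. In 2 of the 10, Krt25 and Krt27, both KO arrays lay above both WT arrays, against 8.2% of all genes. The sheath keratin Krt27 was at 9.57 and 9.47 in KO and 9.27 and 8.87 in WT, a difference of 0.45 (SE 0.17, limma unadjusted p = 0.074, adjusted p = 1). Krt25 differed by 0.26 (SE 0.11), Krt71 by 0.39 (SE 0.23), Krt26 by 0.51 (SE 0.31) and Tgm3, a transglutaminase that cross-links trichohyalin, by 0.75 (SE 0.58). Krt71 had KO 1 and WT 2 at the same value, 8.78. Krt26 and Tgm3 were dim, and Krt26 had KO 1 and WT 1 at the same value, 4.87. In Krt25 and Krt71, as in Tchh, KO 2 was the highest array and WT 1 the lowest. The median of the list was 0.06 for number 1 and 0.46 for number 2. WT 2 was the lowest array for 7 of the 10 genes, against 22.1% of all genes.

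Hair shaft products had a median of 0.09 in 18 measured genes of 22, Krt85 and 3 others having no value here, with 11 positive. The median was -0.22 for number 1 and 0.31 for number 2. In 12 of the 18 genes WT 1 was highest, against 17.4% of all genes. In 12 of the 18 WT 2 was lowest, against 22.1%. The cortex keratin Krt35 differed by -0.57 (SE 0.43), being at 7.66 on KO 1 and 8.90 on WT 1 and 0.09 apart between KO 2 and WT 2. Krt86 differed by -0.24 (SE 0.14), Krt34 by 0.21 (SE 0.13) and Krt84 by -0.16 (SE 0.11). These 3 probe sets were dim. Krt86 had KO 2 and WT 2 at the same value, 4.33, and Krt34 had KO 1 and WT 1 at the same value, 6.47. S100a3, a cuticle protein that PADI3 also modifies, was chosen after its values were seen and was at 7.93 and 7.75 in KO and 8.48 and 6.80 in WT, the order of arrays that Crym had. That order was found in 4 of the 18 shaft genes, against 4.33% of all genes.

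**Figure D4:**
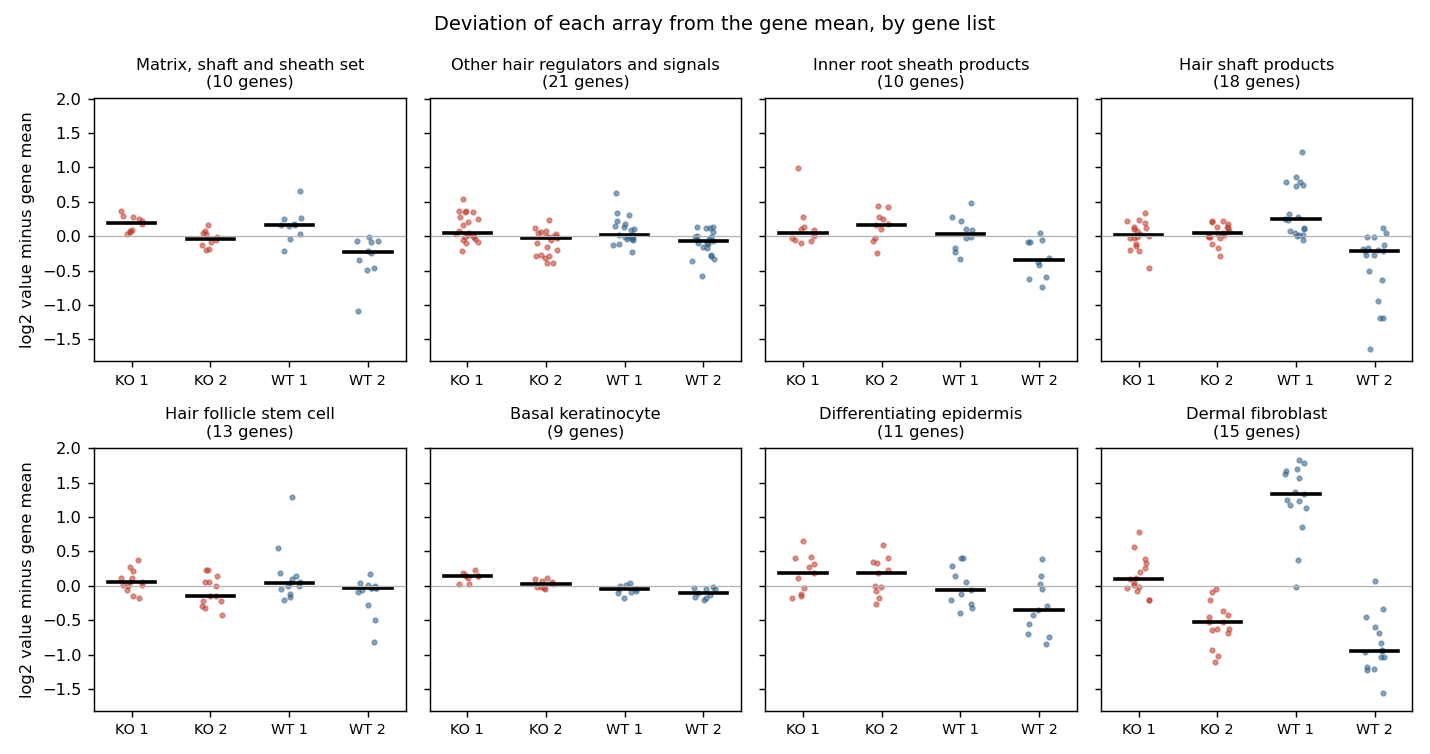
Log2 value minus the gene's mean over the 4 arrays (y axis) on KO 1, KO 2, WT 1 and WT 2 (x axis), with 1 point per gene and a bar at the median, for the 10 genes, 3 further hair lists and 4 cell type marker lists. Of these lists the fibroblast markers spread most, with medians of 0.10 and -0.53 in KO and 1.34 and -0.94 in WT. For the 10 genes the medians are 0.19 and -0.03 in KO and 0.16 and -0.22 in WT.

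Relatives of the 10 genes in the same families had a median difference of -0.03 in 22 measured genes of 23, and none had an unadjusted p under 0.05. The 4 of smallest p were Dlx4 at 0.23 (SE 0.14), Gata5 at -0.21 (SE 0.16), Foxn2 at -0.19 (SE 0.17) and Cux2 at -0.10 (SE 0.10). Dlx4 and Gata5 were dim, and 8 of the 22 relatives lay above the median gene. Dlx4 had KO 2 and WT 1 at the same value, 6.41, and Cux2 had KO 1 and WT 1 at the same value, 7.61. Both number 1 arrays were above both number 2 arrays in 7 of the 22, against 22% of all genes. WT 2 was the lowest array in 4 of the 22, against 22.1% of all genes.

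Markers of the differentiating epidermis, which Prdm1 and Dlx3 also serve, had a median difference of 0.20 in 11 genes. Krt1, a keratin of the layers above the basal one, was at 11.37 and 11.31 in KO and at 10.32 and 9.86 in WT (difference 1.25, SE 0.19, limma unadjusted p = 0.0065, adjusted p = 1). Their summed level was 13.86 and 13.87 in KO and 13.44 and 13.20 in WT. Like the values of Tchh and Krt27, this sum was higher on both KO arrays than on both WT arrays. The median level of the 11 markers overlapped between the groups, at 9.46 and 8.93 in KO and 9.59 and 8.76 in WT. Both KO arrays lay above both WT arrays in 4 of the 11 markers, against 8.2% of all genes. The same was so in 6 of 9 basal keratinocyte markers. Of these 9, 8 had a positive difference, against 53.2% of all genes. The summed level of the 9 was 15.48 and 15.43 in KO and 15.32 and 15.28 in WT. The part of either list in the values of Tchh was not tested.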

How the data were processed

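The deposited values are log2 expression values per probe set that the authors made with RMA, per the submitters' processing notes. The RMA version, scan dates and probe set definition are not given. Groups and numbers came from the sample titles. Of 45101 probe sets, 34945 had 1 gene symbol in GEO's platform annotation, 932 had several, 9160 had none here and 64 were controls. 34741 were matched by gene identifier to RefSeq of GRCm38.p6. For each of 18193 genes the probe set of highest mean was taken. KO minus WT was fitted with limma 3.58.1 under R 4.3.3 (lmFit, eBayes, two-sided, no covariate, threshold 0.05 after Benjamini-Hochberg adjustment over all genes). The fit was tested on simulated data.

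SE is the moderated standard error. RMA equalises the arrays' distributions, and differences of dim probe sets are understated. The number of arrays limits the precision. The 10 genes and all lists were chosen with earlier results of these data known. Named were all 10 genes, up to 4 genes of smallest p per hair list, up to 2 per marker list, and Krt71, Krt27, Krt85, Krt35, Tgm3, Hoxc13, Lef1, Col1a2, Cd34, Krt14, Krt1 and Ptprc. S100a3 was named after its values were seen. The test between replicate numbers was chosen after the data were seen. Alternatives were another normalization, a filter on dim genes, other probe set choices, a replicate block, other eBayes settings, a looser threshold and leaving out each array.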

Additional observations from a re-analysis of the deposited data

How the results depend on the processing

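Alternatives that kept the 4 arrays and gave 1 value per gene yielded 58 values of the 10 genes. The sign of KO minus WT was kept in all 58, and no member passed. Part of this was fixed in advance. The replicate block, the eBayes settings and the dim filter cannot change the difference, nor can the mean of probe sets for genes with 1 probe set. Median centring moves every difference by the same amount, too small here to turn any of the 10. Msx1, with the smallest difference, went from 0.041 to 0.050. With every probe set taken singly, the sign was not always kept. The second probe sets of Msx2 and Dlx3 each gave -0.03, and 1437686_x_at and 1425612_at of Cux1 gave 0.02 and 0.05. With 1 array left out, 29 of 40 values kept the sign or were 0. The lowest and highest differences then were -0.15 and 0.23 for Msx1, -0.20 and 0.39 for Msx2, -0.16 and 0.34 for Gata3, -0.17 and 0.56 for Dlx3, -0.24 and 0.016 for Cux1, -0.079 and 0.30 for Prdm1, and -0.43 and 1.31 for Crym. The median of the 10 ran from -0.12 (without WT 2) to 0.26 (without KO 2 or WT 1). The count of members with KO on 1 side of WT was 1, and 0 after quantile normalization again. With an array left out it was 3 to 8. Fewer arrays are then left to overlap, and the share of all genes was not computed. Those counts therefore say nothing particular about the 10 genes. The number 1 arrays stayed above the number 2 arrays in 8 to 9 of the 10. The count of all genes past the threshold was 2, 3 after quantile normalization again or median centring, 1 without dim genes (which removed Foxn1 and Crym), 0 with the mean of probe sets (375 genes with an unadjusted p under 0.05), 0 with every probe set (711 probe sets) and 0 without any 1 array (1044 to 2044 genes). With the replicate number as a block it was also 0 (879 genes), and no call on the 10 genes changed. Arrays of 1 number deviated together from their group means (r = 0.56 across genes), but with 2 pairs and no label saying what a number shares, they were not treated as paired. A group with 1 array left was assumed to vary like the other. The cause of these shifts was not tested.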

Other observations

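Markers of other cells that a skin sort can hold were followed by their values. The 10 melanocyte markers had a median KO minus WT difference of -0.08. Both number 1 arrays lay above both number 2 arrays in 6 of them, against 22% of all genes. Mitf, the transcription factor of that lineage, was at 7.62 and 7.60 in KO and 8.02 and 8.13 in WT (difference -0.47, SE 0.06, limma unadjusted p = 0.00365, adjusted p = 1), and Oca2 differed by -0.20 (SE 0.14). Dermal papilla markers had a median of -0.09 in 12 genes, with Fgf10 at -0.27 (SE 0.07) and Rspo3 at -0.40 (SE 0.23). Sebaceous gland markers had a median of 0.05 in 7 genes, with the melanocortin receptor Mc5r at -0.27 (SE 0.10) and the desaturase Scd1 at 0.34 (SE 0.19). Endothelial markers had a median of -0.12 in 8 genes, with Egfl7 at -0.28 (SE 0.08) and Kdr at -0.24 (SE 0.09). Immune markers had a median of 0.04 in 10 genes, with Aif1 at 0.12 (SE 0.08) and Cd3e at 0.10 (SE 0.09). The probe sets of Oca2, Fgf10, Rspo3, Mc5r, Kdr, Aif1 and Cd3e were dim. Of the papilla markers 1 of 12 lay above the median gene, of the endothelial 1 of 8 and of the immune 0 of 10. Oca2 and Rspo3 each had KO 2 and WT 2 at the same value, 5.96 and 4.05. Hair follicle stem cell markers had a median of -0.015 in 13 genes, with 5 positive, against 53.2% of all genes. The 2 of smallest p were Dio2, a dim probe set, at 0.25 (SE 0.05) and Krt15 at 0.24 (SE 0.12). The order of arrays seen in Tchh was found in 4 of the 13, against 1.57% of all genes, a count made after the values were seen. Basal keratinocyte markers had a median of 0.18 in 9 genes, with Lama3 at 0.22 (SE 0.04) and Krt5 at 0.20 (SE 0.07), and Krtdap of the differentiating epidermis differed by 0.37 (SE 0.12). No gene of these lists passed (limma, adjusted over all genes).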
